A study of Arabidopsis thaliana with 8 samples.

Results

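LTI30, LEA4-5 and STZ are 3 water-deficit and stress genes of Arabidopsis thaliana, followed here through the 1 probe set that names each of them as its only gene. These are 3 of 13356 genes that a probe set of the Affymetrix ATH1 array names alone, and 3 of its 22810 probe sets, of which 22746 are not controls and 13513 name a single gene. RNA came from whole seedlings of the Columbia accession, and 4 genotypes had 2 arrays each: the double mutant carrying phyA-211 and phyB-9 (phyAphyB), the phyA-211 mutant (phyA), the phyB-9 mutant (phyB) and the wild type (WT). In every genotype, seeds were chilled for 5 days at 6 degrees C on 0.8% agar, given 1 h of white light and kept in the dark for 3 days at 22 degrees C. The labels call the 2 arrays of a genotype replicates and mention no separate sowings, so that p-values measure only the spread between arrays, which may be technical. The title of 1 phyA array carries no replicate number, and it is called replicate 1 by accession order.

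Phytochromes A and B sense red and far-red light and end dark growth when a seedling meets light. LTI30 is a dehydrin and LEA4-5 a late embryogenesis abundant (LEA) protein. Both are strongly hydrophilic proteins that accumulate in drying seeds or in vegetative tissue under water deficit, where such proteins protect membranes and enzymes. STZ, also called ZAT10, is a zinc finger protein that acts mainly as a transcriptional repressor, and its transcript responds quickly to salt, cold, drought and strong light. Responses of plants to drought, salt and cold run in part through abscisic acid, the hormone that also holds seeds dormant.

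The 3 genes showed 3 different patterns over the genotypes. LTI30 had its lowest mean in phyA and its highest mean in WT. LEA4-5 was highest in phyA and had its lowest mean in phyAphyB. STZ was higher in every mutant array than in either WT array. The genes had been selected on their measured values in these same arrays, from levels and mutant differences seen before. Their differences are therefore given as a description, with their standard errors (SE) and without a test.

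**Figure D1:**
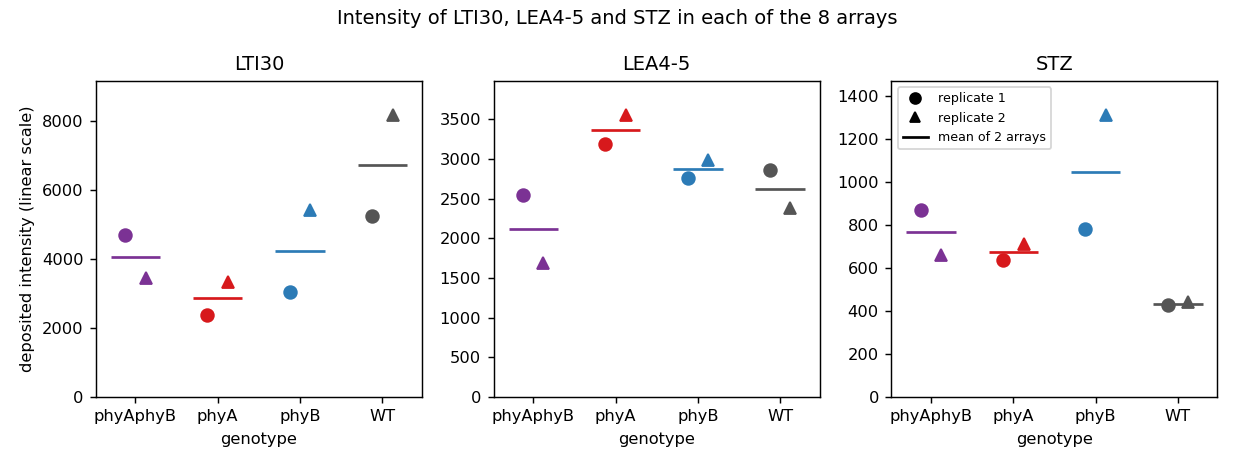
Deposited intensity (linear scale, starting at 0) of LTI30, LEA4-5 and STZ in phyAphyB, phyA, phyB and WT, with 1 point per array and a line at the mean of 2 arrays. All 6 mutant arrays of STZ, at 635 to 1311, lie above the WT arrays at 428 and 439, while LTI30 has its lowest mean in phyA.

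LTI30, the dehydrin, had intensities of 4678 and 3440 in phyAphyB, 2371 and 3333 in phyA, 3024 and 5410 in phyB, and 5253 and 8174 in WT. Both phyA arrays and both phyAphyB arrays lay below both WT arrays, and phyB replicate 2 lay just above WT replicate 1, so that phyB and WT overlapped. On the log2(intensity + 39) scale the level was 11.98 ± 0.31 in phyAphyB, 11.48 ± 0.34 in phyA, 12.00 ± 0.59 in phyB and 12.69 ± 0.45 in WT (SD, n = 2 each). From high to low the means ran WT, phyB, phyAphyB, phyA, and of these neighbours only phyAphyB and phyA did not overlap. The phyA and phyB arrays did overlap, as phyB replicate 1 at 3024 lay between both phyA arrays.

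The difference of LTI30 from WT was -0.70 in phyAphyB, -1.21 in phyA and -0.69 in phyB (SE 0.41 each), which for phyA is 0.432 times the WT level on this scale. The phyA difference was -1.13 between the replicate 1 arrays and -1.28 between the replicate 2 arrays. This closeness rests on a phyA number given by accession order, and with the phyA numbers exchanged the values would lie further apart. The phyAphyB difference was -0.17 and -1.24 in the same order. LTI30 was the higher of the pair in phyAphyB replicate 1 and the lower of the pair in WT replicate 1. In the phyA comparison both mutant arrays lay below both WT arrays at 17.6% of the 13647 probe sets above the filter on dim signals, and in the phyAphyB comparison at 13.3%; for phyB, where LTI30 overlapped, the share was 18.2%. A difference at least as low as that of LTI30 was found at 0.747% of them for phyA, at 3.73% for phyAphyB and at 7.60% for phyB. Since LTI30 was chosen for its level, these shares place its value among all probe sets and support nothing.

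Of the 8 arrays, 6 had a GAPDH 3'/5' ratio between 1.31 and 2.31, while it was 7.87 in phyB replicate 2 and 16.7 in WT replicate 1. This ratio of control probe sets is high where RNA was degraded or labelled mainly at its 3' end. The actin 3'/5' ratio was 8.28 and 7.78 in phyAphyB, 5.61 and 3.64 in phyA, 3.89 and 7.50 in phyB, and 46.7 and 10.8 in WT. By actin, both WT arrays thus lay above all 6 mutant arrays, and phyB replicate 2 did not stand apart. Without both arrays the difference of LTI30 was -1.02 in phyAphyB, -1.53 in phyA and -1.42 in phyB. Without WT replicate 2, the array with the highest LTI30 signal, it was -0.39 in phyAphyB, -0.89 in phyA and -0.37 in phyB. The phyB value also moved with its own arrays, to -0.27 without phyB replicate 1 and -1.11 without phyB replicate 2.

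LEA4-5, the LEA protein, had intensities of 2544 and 1691 in phyAphyB, 3184 and 3556 in phyA, 2759 and 2982 in phyB, and 2859 and 2383 in WT. The phyA arrays were the highest 2 of the 8 and did not overlap any other genotype. The share of all probe sets at which phyA and phyB did not overlap was not counted. The phyAphyB arrays lay below all phyA and phyB arrays, but phyAphyB replicate 1 was above WT replicate 2. The log2 level was 11.05 ± 0.41 in phyAphyB, 11.73 ± 0.11 in phyA, 11.51 ± 0.08 in phyB and 11.37 ± 0.18 in WT (SD, n = 2 each). From high to low the order was phyA, phyB, WT, phyAphyB, in which phyB overlapped WT and WT overlapped phyAphyB.

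Against WT, LEA4-5 differed by -0.33 in phyAphyB, by 0.36 in phyA and by 0.13 in phyB (SE 0.35 each). Only the phyA difference exceeded its own SE, and only slightly. In the phyA comparison 18.0% of probe sets above the filter had both mutant arrays above both WT arrays. The phyAphyB value rested on phyAphyB replicate 2, without which it was -0.04. It was -0.61 without phyAphyB replicate 1 and -0.20 without WT replicate 1. Without WT replicate 2 the phyA difference was 0.23 and the phyB difference 0.00, and without WT replicate 1 the phyB difference was 0.26. The phyB difference was 0.08 without phyB replicate 2. Between replicate 1 arrays the differences were -0.17 in phyAphyB, 0.15 in phyA and -0.05 in phyB. Between replicate 2 arrays they were -0.49, 0.57 and 0.32, so the sign of the phyB value changed.

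STZ, the zinc finger repressor, had intensities of 870 and 660 in phyAphyB, 635 and 712 in phyA, 780 and 1311 in phyB, and 428 and 439 in WT. The WT arrays were the lowest 2 of the 8 and differed from each other by a factor of 1.03. All 6 mutant arrays lay above both, as was the case for 6.02% of the 13647 probe sets above the filter. In the order of the levels, phyB overlapped phyAphyB and phyAphyB overlapped phyA, while phyB and phyA did not overlap. For phyB and phyA the share over all probe sets was not counted. On the log2 scale STZ stood at 9.64 ± 0.27 in phyAphyB, 9.47 ± 0.11 in phyA, 10.04 ± 0.51 in phyB and 8.88 ± 0.02 in WT (SD, n = 2 each).

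The STZ differences from WT were 0.75 in phyAphyB, 0.59 in phyA and 1.15 in phyB (SE 0.42 each), or 1.69, 1.51 and 2.23 times the WT level. The fit gives all genotypes of a probe set 1 common spread, so this SE does not follow the small spread of STZ in WT. Both mutant arrays lay above both WT arrays at 17.0% of probe sets for phyAphyB, at 18.0% for phyA and at 14.7% for phyB. A difference at least as high as that of STZ was found at 7.84%, 13.6% and 2.87% of probe sets in the same order. The differences between arrays of replicate 1 were 0.96 in phyAphyB, 0.53 in phyA and 0.81 in phyB, and between arrays of replicate 2 they were 0.55, 0.65 and 1.50. The high value of 1.50 came from phyB replicate 2, the array with the GAPDH ratio of 7.87, and without this array the phyB difference was 0.79. The 3 comparisons share the WT arrays, so a low WT level enters all of them. The actin 3'/5' ratio also separated the mutant arrays, at 3.64 to 8.28, from both WT arrays, at 46.7 and 10.8, and its part in the STZ values was not tested.

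**Figure D2:**
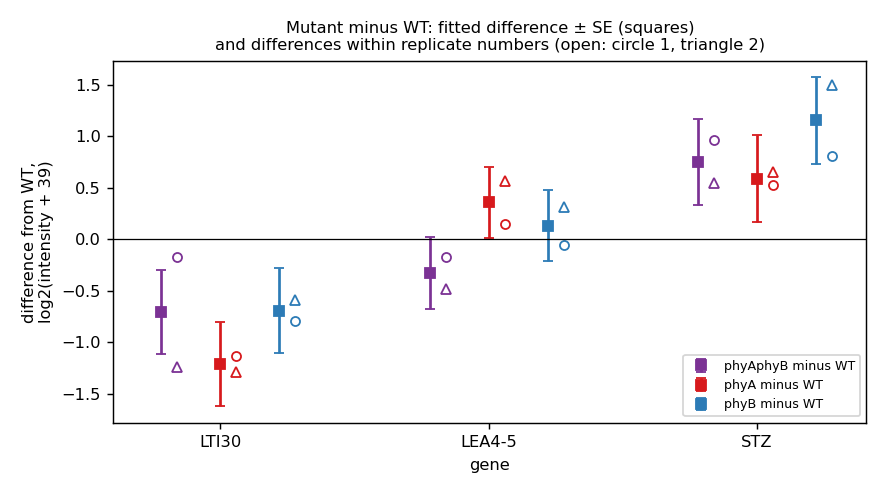
Difference of phyAphyB, phyA and phyB from WT for LTI30, LEA4-5 and STZ on the log2(intensity + 39) scale. Squares are fitted differences with bars of 1 SE, and open symbols are the differences between arrays of replicate 1 (circles) and of replicate 2 (triangles); LTI30 is below 0 and STZ above 0 in each mutant, and LEA4-5 is on both sides.

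The design also allows the loss of each phytochrome to be set in the other mutant's background beside its loss in WT. For LTI30, loss of phytochrome B gave a difference of 0.51 in phyA seedlings (phyAphyB minus phyA) and of -0.69 in WT seedlings (phyB minus WT), with an SE of 0.41 for each. Loss of phytochrome A gave -0.01 in phyB seedlings and -1.21 in WT seedlings. Thus the 2 double mutant arrays, at 4678 and 3440, stood above both phyA arrays, as at 10.8% of probe sets, and within the range of the phyB arrays, where 16.3% of probe sets had both double mutant arrays above both phyB arrays. The double mutant's difference from WT exceeded the sum of both single mutants' differences by 1.20 (SE 0.58). This combined value was 0.78 without phyB replicate 1 and 1.93 without both arrays of high GAPDH ratio. The latter left WT replicate 2 and phyB replicate 1 alone in their genotypes.

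For LEA4-5, loss of phytochrome B gave -0.69 in phyA seedlings and 0.13 in WT seedlings, and loss of phytochrome A gave -0.46 in phyB seedlings and 0.36 in WT seedlings (SE 0.35 each). Both phyAphyB arrays lay below both phyA arrays, as at 8.67% of probe sets, and below both phyB arrays, as at 10.4%. The combined value was -0.82 (SE 0.49), and -0.53 without phyAphyB replicate 2.

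For STZ, loss of phytochrome B gave 0.16 in phyA seedlings and 1.15 in WT seedlings, and loss of phytochrome A gave -0.40 in phyB seedlings and 0.59 in WT seedlings (SE 0.42 each). The double mutant thus stood near the single mutants and not at the sum of their differences, by -0.99 (SE 0.59). Without phyB replicate 2 this value was -0.63. The difference of -0.40 in phyB seedlings also came mainly from that array. It was 0.15 between replicate 1 arrays and -0.95 between replicate 2 arrays, and the phyAphyB and phyB arrays overlapped. The median combined value over all 13647 probe sets was 0.12.

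**Figure D3:**
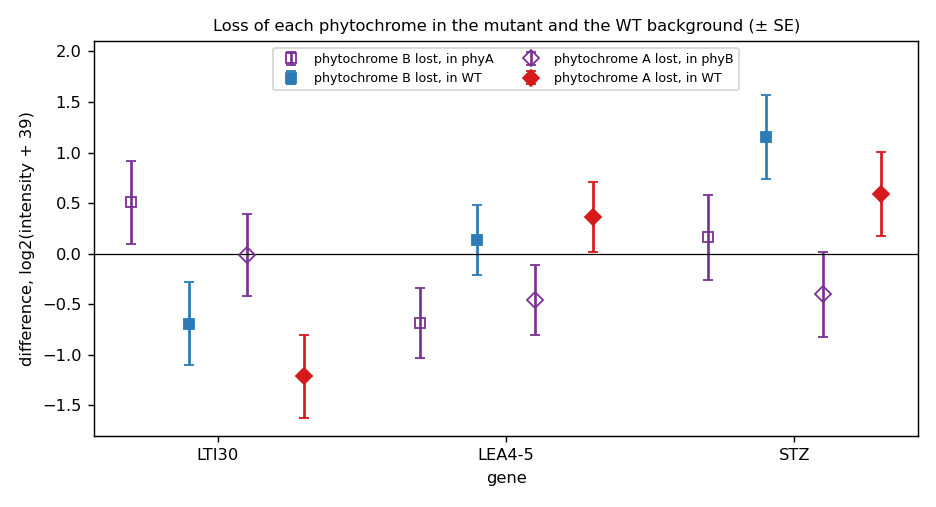
Loss of phytochrome B (squares) and of phytochrome A (diamonds) in the other mutant (open symbols) and in WT (filled symbols), as differences on the log2(intensity + 39) scale with bars of 1 SE. LTI30 and LEA4-5 lie on opposite sides of 0 in the phyA and WT backgrounds for loss of phytochrome B. LEA4-5 and STZ do so for loss of phytochrome A in the phyB and WT backgrounds.

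Other genes of the same responses were tested in the fit over all probe sets. Of 183 listed genes in 8 lists, 40 had a probe set naming them alone and 24 of these lay above the filter on dim signals. None of the 24 passed the limma test (Benjamini-Hochberg adjusted p under 0.05) in any mutant against WT. The smallest adjusted p among them was 0.997 in phyAphyB, 0.76 in phyA and 0.79 in phyB, and at an unadjusted p under 0.05 there were 1, 1 and 2 of the 24 genes in that order, where 3.57%, 6.37% and 5.93% of all probe sets passed that threshold. Over all 13647 probe sets, 0.0220% were called in phyAphyB, 0.0147% in phyA and 0% in phyB, and the 0 of 24 lay at this background. These calls, 3, 2 and 0 in number, became more without WT replicate 2. WT then rested on WT replicate 1 alone, the array with the GAPDH ratio of 16.7, and those calls are not read as mutant differences. With 2 arrays per genotype and SEs of 0.30 to 0.69 for these genes, a count of 0 does not show that their levels were alike. The median difference of the 24 genes was -0.02 in phyAphyB, -0.10 in phyA and 0.03 in phyB, beside 0.04, -0.01 and -0.06 over all probe sets.

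Dehydrins, the family of LTI30, did not share a direction. Of 5 measured, 3 were lower and 2 higher than WT in each mutant, none of them called, with a median of -0.41 in phyAphyB, -0.59 in phyA and -0.24 in phyB. COR47, a cold-induced dehydrin, had 23658 and 36381 in phyAphyB, 23212 and 34557 in phyA, 23090 and 43778 in phyB, and 50843 and 44070 in WT. All 6 mutant arrays of COR47 lay below both WT arrays, as at 5.85% of probe sets, and its differences were -0.69, -0.74 and -0.57 (SE 0.41 each). AT1G54410, listed as the small dehydrin HIRD11, was the lowest in phyAphyB at -0.76 and in phyA at -1.22 (SE 0.60). It had 39636 in phyB replicate 2, the highest of the 8 arrays, so it did not share the pattern of COR47 in phyB. The dehydrin gene named LEA in the tables (AT2G21490) was the highest, at 0.97 in phyAphyB, 0.69 in phyA and 1.07 in phyB (SE 0.39). Its intensities were 2300 and 2935 in phyAphyB, 1735 and 2601 in phyA, 3176 and 2449 in phyB, and 1041 and 1636 in WT. All 6 mutant arrays of this gene lay above both WT arrays, as at 6.02% of probe sets. The margin was small, with 1735 in phyA replicate 1 and 1636 in WT replicate 2.

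LEA proteins other than dehydrins, the class of LEA4-5, had 11 members above the filter of 17 with a named probe set. In phyAphyB 5 were higher and 6 lower than WT (median -0.03), in phyA 4 and 7 (-0.13), and in phyB 6 and 5 (0.01), with 0 calls. The genes nearest in class to LEA4-5, AtLEA4-1 and LEA18, lay close to 0, with differences of -0.15, -0.16 and -0.13 for AtLEA4-1 and -0.16, 0.03 and 0.01 for LEA18 in phyAphyB, phyA and phyB. The highest values belonged to M10 in phyAphyB (1.10, SE 0.49), AT1G72100 in phyA (0.65, SE 0.36) and M17 in phyB (1.08, SE 0.69), and the lowest to AT4G36600 in phyAphyB (-0.61, SE 0.49), AT2G44060 in phyA (-0.70, SE 0.46) and AT4G36600 in phyB (-1.12, SE 0.49). M17 reached 50665 in phyB replicate 2, while the other 7 arrays had 6640 to 19924.

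Of the zinc finger genes related to STZ, AT2G28200 and AT5G03510 lay above the filter, 2 of 6 with a named probe set. Neither shared the STZ pattern. AT5G03510 had 789 and 1038 in phyAphyB, 440 and 626 in phyA, 592 and 865 in phyB, and 1040 and 1127 in WT. All 6 mutant arrays of AT5G03510 lay below both WT arrays, as at 5.85% of probe sets. In phyAphyB replicate 2, at 1038, it was just below WT replicate 1, at 1040. Its differences were -0.25, -0.99 and -0.57 (SE 0.41), and the first, in phyAphyB, was smaller than its SE. AT2G28200 stood at -0.49 in phyAphyB, -0.11 in phyA and 0.06 in phyB (SE 0.37). Among touch and wound genes, PUB22, a ubiquitin ligase gene of drought and immune responses, was at 0.40 in phyAphyB, 0.11 in phyA and 0.58 in phyB, and the factor WRKY6 at 0.08, 0.37 and -0.15. Drought and cold genes above the filter were RD2 (0.16, 0.33 and 0.09) and AT3G02480 (-0.27, 0.39 and -0.45). The only factor of the CBF and DREB list above the filter, tny, stood at 0.30, -0.10 and 0.23, and the only heat shock gene, ATHSP22.0, at 0.00, -0.17 and 0.34. Of the 42 listed abscisic acid genes, 0 had a probe set naming them alone, and that hormone's own genes are not analysed here.

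**Figure D4:**
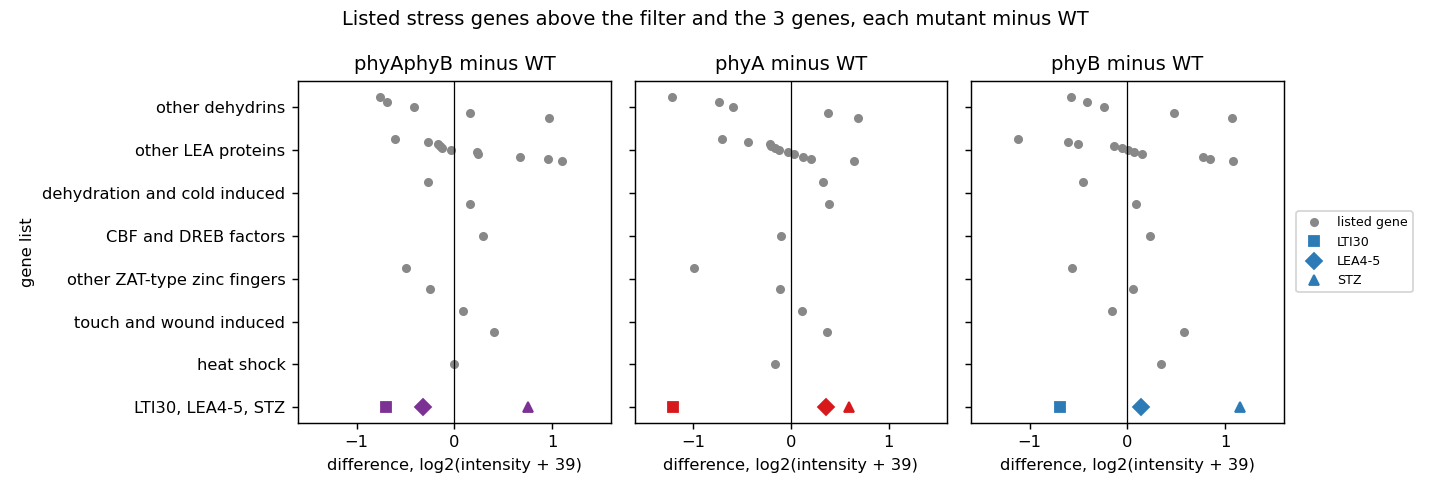
Difference of each mutant from WT on the log2(intensity + 39) scale for the 24 listed stress genes above the filter (grey points, 1 row per list) and for LTI30, LEA4-5 and STZ (coloured symbols). The grey points lie between -1.22 and 1.10, on both sides of 0 in each mutant.

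LTI30, LEA4-5 and STZ did not track one another over the 8 arrays. Pearson's r, as a description of arrays that share their array-wide shifts, was -0.20 for LTI30 and LEA4-5, -0.20 for LTI30 and STZ, and 0.17 for LEA4-5 and STZ. Each was then compared with the other 7348 probe sets above the filter that name 1 gene. The closest are the highest of very many values and so are high by selection. After each array's log2 values were centred on their median, the 15 closest kept r from 0.82 to 0.97, but the 6 least like, at -0.93 to -0.98 as deposited, moved to -0.34 to -0.72.

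The 5 probe sets most like LTI30 were AT4G19045 (r = 0.97), GSTU28 (0.95), AT5G16810 (0.94), XTH19 (0.93) and AT5G07580 (0.93). GSTU28, a glutathione transferase, had 727 and 520 in phyAphyB, 402 and 439 in phyA, 449 and 750 in phyB, and 702 and 841 in WT. Like LTI30 it had its lowest value in phyA replicate 1 and its highest in WT replicate 2. XTH19, a cell wall xyloglucan enzyme, had 14248 and 11768 in phyAphyB, 9413 and 12678 in phyA, 9491 and 14098 in phyB, and 15836 and 17093 in WT. The least like were AT5G49555 (-0.96) and AT2G27590 (-0.95).

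LEA4-5 was most like scpl44, a serine carboxypeptidase-like gene (r = 0.95), AT4G37220 (0.95), AT3G60370 (0.93), NCLPP7, a ClpP protease subunit (0.91), and AT3G29240 (0.89). scpl44 had 582 and 124 in phyAphyB, 702 and 797 in phyA, 588 and 643 in phyB, and 693 and 412 in WT. Its lowest value was in phyAphyB replicate 2, where LEA4-5 was lowest too. AT1G08280 and AT1G74770 were least like it (-0.94 and -0.93).

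STZ was most like AT2G27580 (r = 0.95), AT3G52390 (0.95), AT5G07040 (0.95), AT5G14730 (0.95) and AT5G53070 (0.94). AT2G27580 had 3205 and 2817 in phyAphyB, 2214 and 2975 in phyA, 3455 and 4882 in phyB, and 1067 and 1331 in WT. As for STZ, both WT arrays were lowest and phyB replicate 2 was highest. The least like were AT2G14835 and GH3.17, which conjugates the hormone auxin to amino acids (-0.98 each). GH3.17 had 3759 and 4127 in phyAphyB, 4181 and 4269 in phyA, 4123 and 2803 in phyB, and 5877 and 6062 in WT.

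**Figure D5:**
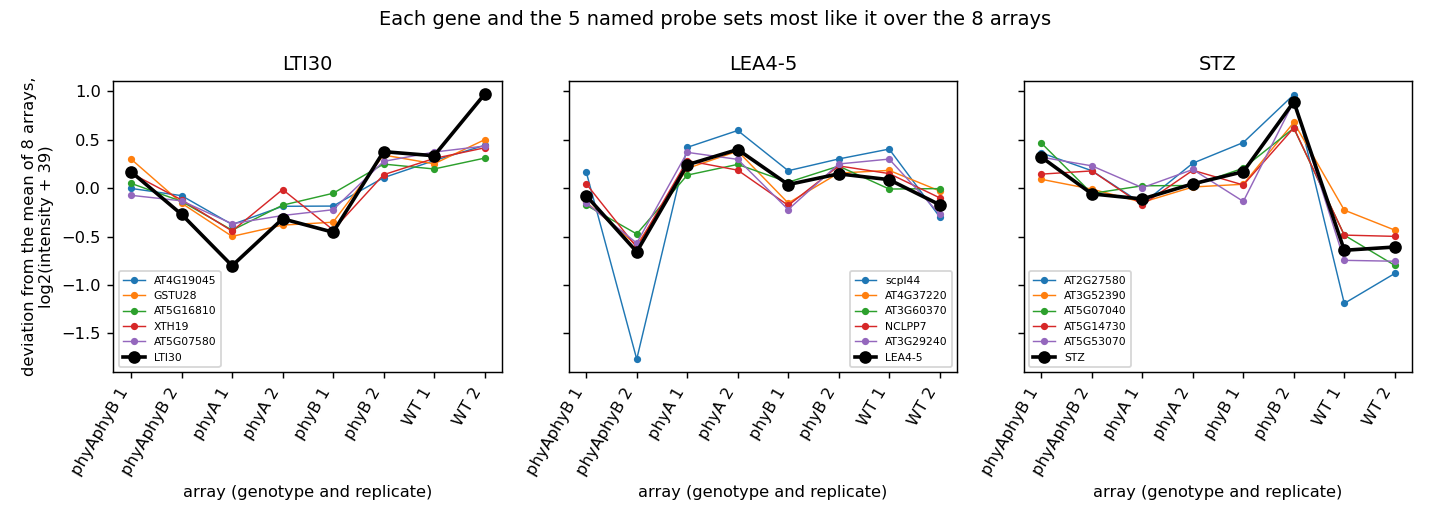
Deviation from the mean of the 8 arrays on the log2(intensity + 39) scale, for LTI30, LEA4-5 and STZ (thick black lines) and the 5 named probe sets most like each (thin lines), by genotype and replicate. The phyA arrays are low for LTI30, phyAphyB replicate 2 is low for LEA4-5, and both WT arrays are low for STZ.

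In RNA from whole seedlings, fewer cells of a type and less RNA per cell cannot be told apart. PORB, an enzyme of chlorophyll synthesis, had 50586 to 50697 in phyAphyB, 44044 to 63901 in phyA, 34265 to 58804 in phyB and 43229 to 58866 in WT. It was the 1 of 2 genes listed as etiolated seedling markers with a named probe set. Of 15 seed storage genes, 1 was named, the vicilin-like PAP85, with 14111 to 20201 in phyAphyB, 4426 to 8835 in phyA, 12256 to 24718 in phyB and 4743 to 5802 in WT. PAP85 was thus higher in both arrays of each phyB-9 genotype than in both WT arrays, as at 17.0% of probe sets for phyAphyB and 14.7% for phyB. It did not pass the test (limma adjusted p = 0.997 in phyAphyB and 0.70 in phyB). Of 5 root markers, 2 were named, with a summed intensity of 69539 to 82473 in phyAphyB, 71298 to 74116 in phyA, 73111 to 121124 in phyB and 67065 to 112094 in WT. None of these named markers was at 0 in any array, and for the 4 markers of light-grown green tissue 0 had a named probe set. EXPA7, a root hair expansin and 1 of the named root markers, had 665 and 561 in phyAphyB, 738 and 733 in phyA, 775 and 950 in phyB, and 99 and 483 in WT. Like STZ it was higher in all 6 mutant arrays than in WT, as at 6.02% of probe sets. The value of 99 came from WT replicate 1, with the GAPDH ratio of 16.7. PYK10, the other named root marker and nearly all of the summed intensity, differed from WT by -0.20 in phyAphyB, -0.26 in phyA and 0.11 in phyB (SE 0.38 each). The part of these markers in the STZ, LTI30 and LEA4-5 values was not tested. The mutated genes PHYA and PHYB had 0 probe sets naming them alone, and the labels were not checked on their transcripts.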

How the data were processed

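The authors deposited 1 linear intensity per probe set and array, and from the values these had been scaled to a common 2% trimmed mean (2500.2 to 2500.3). Labelling followed Affymetrix instructions, per the labels' protocols, and the sources used here do not give the summarising software. Probe sets were named through the platform annotation and the RefSeq gene table of TAIR10.1, and no coordinates are given. A pseudocount of 39, the 10th percentile of non-control values, was added before log2, which understates differences of dim probe sets. The dimmest 40% by mean over all 8 arrays were left out, leaving 13647, with LTI30, LEA4-5 and STZ all above that limit. All 8 arrays entered 1 limma 3.58.1 model (R 4.3.3) with genotype means (lmFit, eBayes with intensity trend), two-sided, called at an adjusted p under 0.05. It was tested on simulated data. Named genes were the 3 genes, the 5 most and 2 least correlated with each, the extremes and calls of each list, and markers. COR47, AtLEA4-1, LEA18 and arrays of listed genes were added after values were seen. The genes and lists were chosen with earlier results of these data known. The number of arrays limits the precision. Alternatives were another pseudocount, normalizations, filter and trend, a replicate block and leaving out arrays.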

Additional observations from a re-analysis of the deposited data

Results flagged for a closer look

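Opposite directions in the mutant and WT backgrounds were seen for 4 effects, in which every array of one mutant moved one way from the mean of its comparison genotype and every array of the other moved the opposite way. These differences were not tested, and the share of all probe sets meeting this rule was not counted. A combined value at least as far in the same direction was found at 2.58% of probe sets for LTI30, 8.66% for LEA4-5 and 6.16% for STZ. As the genes were chosen on values of these arrays, the shares support nothing. The rule sets arrays against a mean, so arrays of the compared genotypes can still overlap, as those of phyB and WT did for LTI30 and LEA4-5. For LTI30, loss of phytochrome B gave 0.51 in phyA seedlings and -0.69 in WT seedlings, a difference of 1.20. For LEA4-5, loss of phytochrome B gave -0.69 in phyA and 0.13 in WT. The 0.13, with an SE of 0.35, was -0.05 between replicate 1 arrays and 0.32 between replicate 2 arrays. Loss of phytochrome A gave -0.46 in phyB and 0.36 in WT for LEA4-5. The difference was -0.82 for the loss of each phytochrome. For STZ, loss of phytochrome A gave -0.40 in phyB and 0.59 in WT, a difference of -0.99. The -0.40 came mainly from phyB replicate 2, an array of high GAPDH ratio. It was 0.15 between replicate 1 arrays and -0.95 between replicate 2 arrays, and the phyAphyB and phyB arrays overlapped. All 4 share the same 8 arrays and are not independent of each other.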

How the results depend on the processing

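The 12 values of LTI30, LEA4-5 and STZ (each mutant minus WT, and the combination of all 4 genotypes, whose alternatives were chosen after seeing the data) kept their sign in all 120 alternatives run. Of the 120, 8 moved from the main value by at least the pooled SD of the compared genotypes. The alternatives refit the same arrays on which the genes were chosen, so a kept sign is no independent support. Leaving out 1 array, LTI30 ran from -1.02 to -0.39 in phyAphyB, -1.53 to -0.89 in phyA and -1.11 to -0.27 in phyB, LEA4-5 from -0.61 to -0.04, 0.23 to 0.49 and 0.00 to 0.26, and STZ from 0.57 to 0.94, 0.51 to 0.67 and 0.79 to 1.51 in that order. The combined value ran from 0.78 to 1.61 for LTI30, -1.11 to -0.53 for LEA4-5 and -1.35 to -0.63 for STZ. A lone array was taken to vary like the others. Without both arrays of high GAPDH ratio, phyB minus WT was -1.42 for LTI30 and 0.78 for STZ, and the combined value 1.93 for LTI30 and -0.61 for STZ. WT and phyB then rested on 1 array each. Over all probe sets, phyAphyB had 3 calls, phyA 2 and phyB 0. Leaving out 1 array gave 2 to 30, 2 to 93 and 0 to 70, the highest each without WT replicate 2. With a pseudocount of 1, or without both arrays of high GAPDH ratio, phyAphyB and phyA had 1 call each, and with no filter phyB had 2. The listed stress genes had 0 calls in every alternative, which does not show that their levels were stable. With the replicate number as a replicate block, phyB had 2 calls and the values of the 3 genes were unchanged, as the design is balanced. The labels do not say what a shared number marks, and 1 phyA array has none. Deviations of same-numbered arrays correlated at over 0.1 in 5 of 6 pairs of genotypes, from -0.06 (WT and phyB) to 0.64 (WT and phyAphyB). Signal over background was not given, and each genotype had 2 arrays.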
